A study of Mus musculus with 35 samples.

Results

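Oxidative phosphorylation is carried out by 5 multi-subunit complexes of the inner mitochondrial membrane. Complexes I (NADH dehydrogenase) and II (succinate dehydrogenase) pass electrons to complex III (cytochrome bc1), cytochrome c carries them to complex IV (cytochrome c oxidase), and complex V (ATP synthase) makes ATP from the resulting proton gradient. Most subunits are encoded in the nucleus, but a small set of core subunits of complexes I, III, IV and V is encoded in mitochondrial DNA and transcribed inside the organelle, so that each of these complexes needs transcripts from both genomes. In the brain, microglia are resident macrophages that colonise the tissue before birth and mature over the first postnatal weeks.

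The genes described here are the protein-coding genes whose symbols mark them as subunits of the complexes, cytochrome c or Ndufaf assembly factors (symbols beginning Nduf, Uqcr, Cox4 to Cox8, Atp5, mt-Nd, mt-Co, mt-Atp or mt-Cytb, together with Sdha to Sdhd, Cyc1 and Cycs). There were 109 such genes among the 55401 counted, and 103 of them reached 0.5 CPM (counts per 1000000 counted fragments) in at least 5 mice, as did 17612 genes in all. The 103 comprised 92 of 96 nuclear genes and 11 of 13 mitochondrial genes. The nuclear genes were 36 subunits of complex I, 4 of complex II, 9 of complex III, 15 of complex IV (Ndufa4 counted here) and 16 of complex V, that is 80 subunits, with 8 complex I assembly factors, cytochrome c (Cycs) and 3 genes listed apart (Cox7a2l, Ndufa4l2 and Atp5s). The 6 genes under the limit were mt-Atp8, mt-Nd4l, Cox7b2, Cox8b, Cox8c and a second entry for Atp5o.

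The mRNA came from CD45+ cells that were immunopanned from the whole brain of wild-type C57Bl/6 mice, 1 library per mouse, at postnatal day 6 (P6), P15 and 8 weeks, in females and males. CD45 is a pan-leukocyte surface protein, so the selection does not separate microglia from other leukocytes. There were 35 libraries, and 34 entered the comparisons (4 female and 6 male at P6, 6 of each sex at P15 and at 8 weeks), because the study removed 1 outlier mouse and P6 female 6 is the mouse missing from its list of plotted mice. Between 23316107 and 38965078 fragments were counted per library (median 32742525).

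The sample labels were checked against marker genes, each list given as the mean log2 CPM of its genes, all of which passed the limit on low counts. These marker values were scaled by total counts alone, unlike the gene values below. The 6 microglial markers, which include Sall1 and P2ry12, ran from 9.52 to 10.18 at P6, from 10.43 to 11.4 at P15 and from 11.15 to 11.55 at 8 weeks. The 6 neuronal markers ran from 4.75 to 6.46 at P6, from 3.66 to 6.67 at P15 and from 2.80 to 4.97 at 8 weeks. The 9 markers of neural progenitors and immature neurons ran from 4.47 to 6.72 at P6, from 1.90 to 5.12 at P15 and from 0.86 to 2.47 at 8 weeks, and the P6 and 8-week mice did not overlap. In the order of the 3 ages, the means were 4.84, 4.87 and 4.67 for 9 monocyte and macrophage markers, 6.83, 7.91 and 7.62 for 6 astrocyte markers, 4.48, 6.03 and 4.94 for 6 oligodendrocyte markers, 5.044, 5.317 and 5.397 for 6 endothelial and pericyte markers, and 8.39, 9.37 and 7.92 for 5 erythroid markers. Neural transcripts were therefore present in the libraries. The neuronal and progenitor means were lower at 8 weeks than at P6, and the astrocyte and oligodendrocyte means were highest at P15. The mean of the neuronal and progenitor markers was also added to the fit as a covariate, and its values from P6 to 8 weeks are given beside the named genes whose call it ended. Because these are bulk libraries, fewer contributing cells of a type and less RNA per cell cannot be told apart.

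One other library stood apart. P15 male 1 had the highest summed level of the nuclear subunits of all P15 mice, the lowest summed level of the mitochondrial mRNAs, the lowest microglial markers at P15 (10.43) and the highest oligodendrocyte markers (7.71). It was kept in the fit. Counts of called genes in the steps to and from P15 are given with and without it, as are named genes whose call in a step described below it changed.

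The nuclear and the mitochondrial transcripts differed in how they changed with age. The summed CPM of the 80 nuclear subunits was 6680 in the lowest, 7924 in the median and 8523 in the highest of the 10 P6 mice. At P15 these values were 4828, 5815 and 9898 (n = 12), and at 8 weeks 3581, 4473 and 6370 (n = 12). All 12 mice at 8 weeks were below every P6 mouse, as were 11 of the 12 at P15, the exception being P15 male 1. Without that mouse the highest P15 value was 6211.

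The 11 mitochondrial mRNAs together gave 9083 CPM in the lowest, 12373 in the median and 14875 in the highest P6 mouse, against 5903, 11569 and 15921 at P15 and 8149, 14382 and 18023 at 8 weeks. The 3 ages overlapped. The ratio of the mitochondrial to the nuclear sum had a mean of 1.59 ± 0.32 (SD, n = 10) in the P6 mice, 2.05 ± 0.70 (n = 12) in the P15 mice and 3.12 ± 0.88 (n = 12) in the 8-week mice. In 11 of the 12 mice at 8 weeks and 7 of the 12 at P15 it exceeded the highest P6 mouse. These sums are descriptions without a test, and each gene was tested in the fit across all genes.

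**Figure D1:**
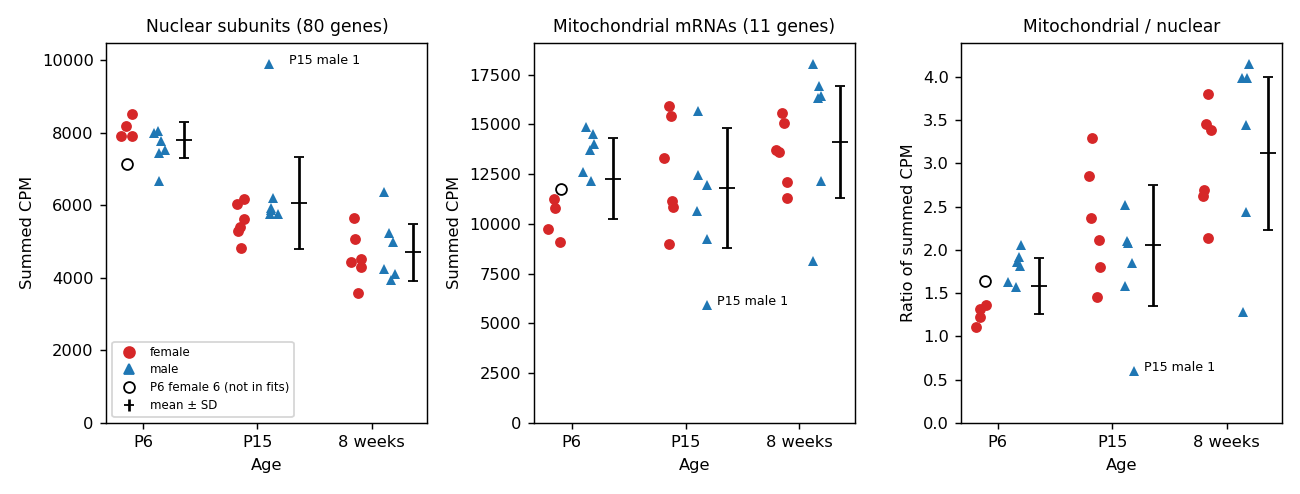
Summed CPM of the 80 nuclear subunit genes (left) and of the 11 mitochondrial mRNAs (middle), and the ratio of the 2 sums (right), in each mouse by age. Each point is a mouse, circles for females and triangles for males, the open circle is the P6 female library left out of the fits, and bars give the mean ± SD of the others. The nuclear sum at 8 weeks lay below every P6 mouse, the mitochondrial sum overlapped at all ages, and P15 male 1 had the highest nuclear sum of all mice (9898).

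From P6 to 8 weeks, 78 of the 103 genes were lower and 7 were higher (edgeR quasi-likelihood test, false discovery rate, FDR, below 0.05). Of all genes tested, 36.6% were lower and 37.8% were higher. All 78 lower genes were nuclear. Among the 80 nuclear subunits, 73 were lower, 1 was higher and 6 did not pass the test, with a median log2 fold change of -0.80 beside 0.04 for all genes tested. Among the 11 mitochondrial mRNAs, none was called lower by this test (7 did not pass it) and 4 were higher, with a median of 0.28.

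From P6 to P15, 62 of the 103 genes were lower and 3 higher (31.4% and 30.4% of all genes). From P15 to 8 weeks, 60 were lower and 8 higher (23.9% and 24% of all genes). The nuclear subunits had a median log2 fold change of -0.36 in each step. Without P15 male 1 the medians were -0.47 and -0.29, and 76 genes were lower in the first step and 59 in the second (32.9% and 23.7% of all genes). In the fit with the neural markers as a covariate, 43 genes were lower and 2 higher from P6 to P15 (26% and 27.4% of all genes), and 23 were lower and 5 higher from P15 to 8 weeks (20.2% and 20.1%), so that the share lower in the second step was then near that of all genes. In the same fit 46 genes were lower and 7 higher from P6 to 8 weeks (24.3% and 26.2% of all genes), the nuclear subunit median was -0.57 and the mitochondrial median was 0.69. The neural markers and age moved together, and their part in these changes cannot be told apart.

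For 43 of the 80 nuclear subunits every mouse at 8 weeks was below every mouse at P6. This held for 14.8% of all genes tested, and for 0 of the 11 mitochondrial mRNAs.

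The changes were modest in size. Against a 2-fold threshold (edgeR glmTreat, FDR below 0.05), 2 genes were lower from P6 to 8 weeks (Atp5o and Atp5g3) and 1 was higher (Cox6a2), whereas 12.4% of all genes passed downwards and 11.5% upwards. None of the 103 passed in either single step, by edgeR, DESeq2 or limma-voom, and none did so even at an unadjusted p under 0.05. Of the 17612 genes tested, edgeR called 855 lower and 858 higher past 2-fold from P6 to P15, and 540 and 211 from P15 to 8 weeks. None of the 3 passed with DESeq2 or with the neural marker covariate (where Atp5o stood at -0.81 and Atp5g3 at -0.87), and limma-voom called the pair of ATP synthase genes alone. Without P15 male 1, or without any of P6 females 2, 3 or 5, Cox5a passed as well, and without P6 female 3 Cox7b also did, which made 5 genes. With library size scaling 8 genes passed, all lower, and Cox6a2 was not among them.

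**Figure D2:**
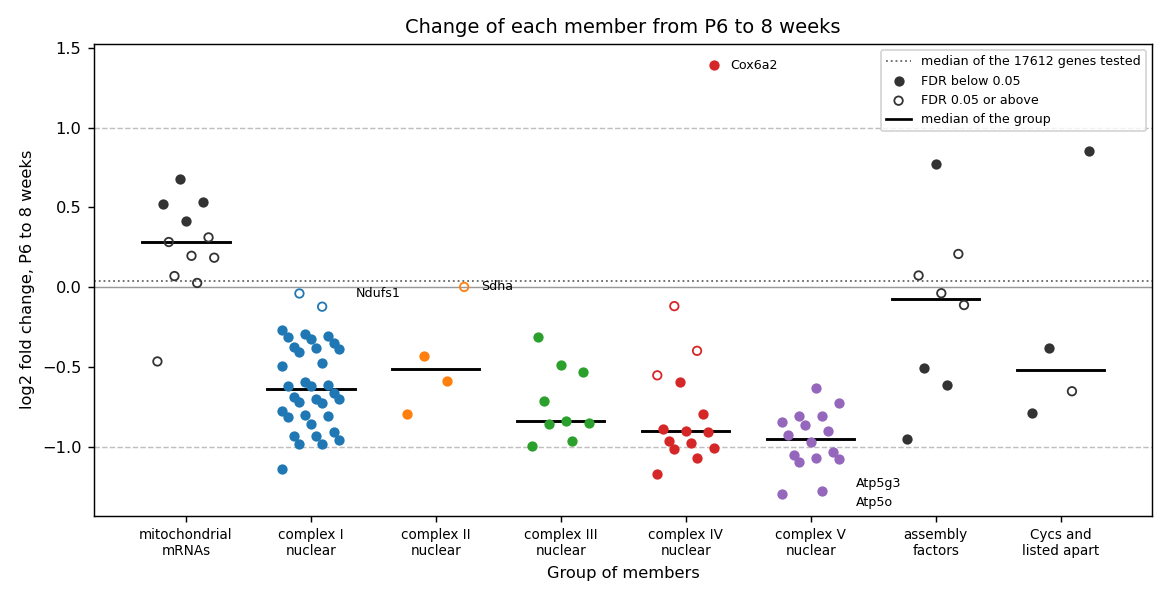
The log2 fold change from P6 to 8 weeks of each of the 103 genes, grouped by genome and complex. Filled points passed FDR 0.05 and open points did not, short lines mark group medians, the dotted line marks the median of the 17612 genes tested, and dashed lines mark a 2-fold change. All nuclear complexes have medians below 0, from -0.95 for complex V to -0.51 for complex II, and the mitochondrial mRNAs have a median of 0.28.

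Complex V had the lowest median of the 5 complexes, although complex IV without Cox4i2, Cox6a2, Cox6b2 and Cox7a1 had a median of -0.96. All 16 nuclear subunits of complex V were lower at 8 weeks than at P6, with a median log2 fold change of -0.95 and a range from -1.30 to -0.63, and all 16 were already lower at P15. With the neural marker covariate 15 of the 16 were lower, with a median of -0.81. The 5 subunits of the catalytic F1 head, alpha to epsilon, had a median of -0.90. Atp5a1, the alpha subunit and the most abundant nuclear subunit of the complex per length, went from 226 CPM per kb at P6 to 156 at P15 and 127 at 8 weeks.

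Atp5o encodes the oligomycin sensitivity conferring protein in the stalk that joins the catalytic head to the membrane (chr16:91925214-91931687, minus strand, GRCm38). It measured 73.2 CPM in the lowest, 79.97 in the median and 89.5 in the highest P6 mouse, 43.1, 49.8 and 97.6 at P15, and 23.95, 30.2 and 48.8 at 8 weeks. The P6 and 8-week mice did not overlap. The log2 fold change was -1.30 (SE 0.12, FDR 1.61e-11), and 27.9% of the 100-base windows of the gene also occur in other annotated transcripts.

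The subunit c genes Atp5g1, Atp5g2 and Atp5g3 encode the same mature protein of the membrane ring with different import sequences. Atp5g3 (chr2:73908447-73911326, minus strand) measured 158, 184 and 212 CPM in the lowest, median and highest P6 mouse and 63.2, 73.7 and 105 at 8 weeks, again without overlap. It fell by 1.279 on the log2 scale (SE 0.11, FDR 2.93e-12). Atp5g1 and Atp5g2 fell by 1.07 and 1.08, so that the order of the 3 genes at P6 (84.9, 74.8 and 14.7 CPM per kb for Atp5g3, Atp5g2 and Atp5g1) gave way to near equal levels per length of Atp5g3 and Atp5g2 at 8 weeks (35.3 and 35.4). The 3 falls were not tested against each other. With the neural marker covariate the values were -0.87 for Atp5g3, -1.38 for Atp5g2 and -0.88 for Atp5g1. Of the Atp5g2 windows 34.7% were shared with other transcripts, of the Atp5g1 windows 5.94% and of the Atp5g3 windows 0%. Atp5mpl, a small proteolipid of the complex, fell by 1.10 (SE 0.11).

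Transcription of nuclear respiratory genes is known to involve NRF1, GABPA (NRF-2), YY1 and the oestrogen-related receptors (ERR). Promoter windows of 300 bases, from 250 before to 50 after the start, were found in RefSeq (GRCm38.p6) for 73 of the 92 nuclear genes, and both strands were searched for 1 exact core of each motif. GCATGCGC (NRF1) was present in 13 of the 73 (17.8%), against 2.71% of all 32851 windows and 5.55% of the tested protein-coding genes that have a window. CCGGAAGT (GABPA) was present in 5 (6.85%, against 3.89% and 8.05%), AAGATGGC (YY1) in 10 (13.7%, against 2.75% and 4.70%) and TCAAGGTCA (ERR) in 2 (2.74%, against 0.423% and 0.330%). The NRF1 core and its reverse complement can overlap and a gene counts once. Subunits with and without the NRF1 core had median log2 fold changes of -0.80 (n = 10) and -0.79 (n = 54), and for YY1 these were -0.81 (n = 9) and -0.78 (n = 55). For GABPA they were -0.63 (n = 5) and -0.80 (n = 59), and for ERR -1.04 (n = 2) and -0.79 (n = 62). None of these differences was tested. These letters are a description of the windows and not of factor binding.

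The windows of 3 genes whose changes are given here are shown for the position of such cores, all before the start of a RefSeq transcript (for Atp5g2 one that begins inside the GENCODE gene) and on the strand of the gene, with the matched letters in capitals. They are Atp5g3 with the reverse complement of the ERR core (chr2:73911344-73911403), Atp5g2 with the NRF1 core (chr15:102671054-102671113) and Cycs with the NRF1 core (chr6:50566596-50566655).
Atp5g3: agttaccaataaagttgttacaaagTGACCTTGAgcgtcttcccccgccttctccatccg
Atp5g2: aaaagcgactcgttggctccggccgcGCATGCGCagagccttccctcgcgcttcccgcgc
Cycs: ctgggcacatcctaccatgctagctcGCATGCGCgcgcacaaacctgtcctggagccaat

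Of the 15 nuclear genes of complex IV, 11 were lower at 8 weeks than at P6, 1 was higher and 3 did not pass the test, with a median log2 fold change of -0.90. The 11 lower genes were the ubiquitous isoforms and single-copy subunits, with a median of -0.96 and a range from -1.17 to -0.59. With the neural marker covariate 7 of these 11 were lower, with a median of -0.61. The calls of Cox7a2 (-0.50, FDR 0.133), Cox6a1 (-0.55, FDR 0.0798), Cox8a (-0.38, FDR 0.179) and Ndufa4 (-0.46, FDR 0.0857) were lost. A difference between ubiquitous and tissue-restricted isoforms was not itself tested.

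Cox5a, a heme-proximal subunit, measured 79.5, 98.5 and 117 CPM in the lowest, median and highest P6 mouse, 52.5, 61.5 and 104 at P15 and 31.0, 42.9 and 56.5 at 8 weeks. No mouse at 8 weeks reached the P6 range, and the log2 fold change was -1.17 (SE 0.10, FDR 5.17e-12). Cox7b changed mainly early, from a median of 78.6 CPM at P6 to 47.3 at P15 and 37.9 at 8 weeks (log2 fold change -0.77 and then -0.30), with no overlap between P6 and P15 (71.9 to 86.8 and 39.9 to 50.8). Cox4i1, the ubiquitous form of the largest nuclear subunit, had a log2 fold change of -0.22 to P15 (FDR 0.132, and -0.33 with FDR 0.0102 without P15 male 1) and fell by 0.68 from P15 to 8 weeks (FDR 3.33e-05). Cox8a, the nuclear subunit gene with the highest level per length at P6, went from 256 to 234 and 170 CPM per kb.

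Cox6a2 is the heart and skeletal muscle isoform of subunit VIa, and it was the single nuclear subunit that rose. It measured 0.77, 0.98 and 1.20 CPM in the lowest, median and highest P6 mouse, 1.01, 1.51 and 2.33 at P15 and 1.65, 2.49 and 4.12 at 8 weeks. Every mouse at 8 weeks was above every P6 mouse, and the log2 fold change was 1.39 (SE 0.17, FDR 2.04e-08) from counts of 26 to 141 per mouse. Its level per length remained far under that of the ubiquitous isoform Cox6a1, with 3.72 against 122 CPM per kb at 8 weeks, while Cox6a1 fell by 0.79 on the log2 scale. With the neural marker covariate the value of Cox6a2 was 0.98 (FDR 0.028).

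The other tissue-restricted isoforms were low and did not pass the test. Cox4i2, a lung-enriched and oxygen-responsive isoform, had 4.55 ± 1.96 CPM at P6 and 3.13 ± 1.55 at 8 weeks (log2 fold change -0.55, FDR 0.0957), and the value turned to 0.78 (FDR 0.324) with the neural marker covariate. It passed without P6 female 3 (-0.72, FDR 0.0352) and with library size scaling (-0.70, FDR 0.0439). Cox6b2, a testis isoform, stood at 1.81 ± 0.49 and 1.71 ± 0.58 CPM, whereas its ubiquitous counterpart Cox6b1 fell by 1.01 on the log2 scale. Cox7a1, a muscle isoform, stood at 0.80 ± 0.30 and 0.62 ± 0.28 CPM, whereas Cox7a2 fell by 0.98. Of the genes under the limit, Cox8c had 0 counts in all 35 libraries, which allows up to 0.077 to 0.129 CPM in a library (3 counts, counting error only), and Cox7b2 and Cox8b had at most 9 and 8 counts. Ndufa4, now counted as a complex IV subunit, fell by 0.96, and its paralogue Ndufa4l2, which is hypoxia-inducible, had a log2 fold change of -0.65 (SE 0.37, FDR 0.114). Ndufa4l2 passed without P6 male 5 (-0.77, FDR 0.0466), and its value turned to 1.18 (FDR 0.246) with the neural marker covariate.

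**Figure D3:**
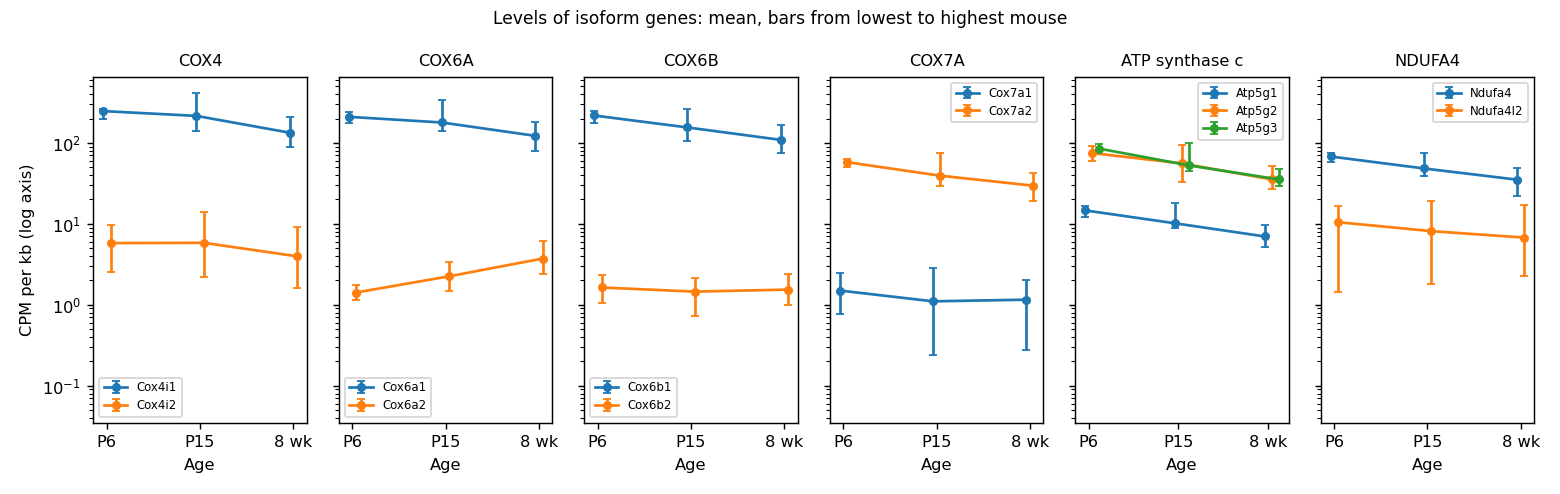
Level per length (CPM per kb, log axis) of genes that encode alternative forms of a subunit, at P6, P15 and 8 weeks. Points are means and bars run from the lowest to the highest mouse. The ubiquitous forms (Cox4i1, Cox6a1, Cox6b1, Cox7a2) lay above the tissue-restricted forms at every age, and Cox6a2 was the form that rose, from 1.42 to 3.72 CPM per kb.

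All 9 nuclear genes of complex III were lower at 8 weeks than at P6, with a median log2 fold change of -0.84 and a range from -0.996 to -0.315. Uqcr10, a small subunit beside cytochrome c1, had the largest fall (log2 fold change -0.996, SE 0.14, FDR 2.2e-07) and the highest nuclear level per length of the complex, with 110 CPM per kb at P6 and 55.5 at 8 weeks. Its mice did not overlap between these ages. Uqcrq and Uqcr11, other small subunits, fell by 0.96 and 0.86. Cyc1, the cytochrome c1 heme protein, had 110 ± 9.53 CPM at P6, 98.4 ± 30.6 at P15 and 77.1 ± 14.2 at 8 weeks, a log2 fold change of -0.53 (SE 0.11). With the neural marker covariate 5 of the 9 were lower. The calls of Uqcr10 (-0.51, FDR 0.159), Uqcr11 (-0.46, FDR 0.23) and Cyc1 (-0.01, FDR 0.967) were lost.

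Cycs encodes somatic cytochrome c, the carrier between complexes III and IV. It measured 28.2, 31.8 and 34.2 CPM in the lowest, median and highest P6 mouse, 14.3, 19.99 and 24.8 at P15 and 12.1, 19.2 and 20.9 at 8 weeks. The P6 mice lay above all others. The log2 fold change was -0.65 (FDR 1.29e-07) to P15 and -0.14 (FDR 0.16) from P15 to 8 weeks. Cycs has many processed pseudogenes, and 22.6% of its windows were shared with other annotated transcripts.

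Complex I, the largest of the complexes, had 34 of 36 nuclear subunits lower at 8 weeks and none higher, with a median log2 fold change of -0.64. The 7 nuclear core subunits, which carry the flavin and iron-sulfur clusters, had a median of -0.31 with 5 of 7 lower. The 29 accessory subunits had a median of -0.70 with 29 of 29 lower. Ndufc1, a small membrane accessory subunit, had the largest fall, from 16.6 ± 1.501 CPM at P6 to 11.4 ± 4.17 at P15 and 7.61 ± 1.37 at 8 weeks (log2 fold change -1.14, SE 0.13, FDR 3.04e-09), and every mouse at 8 weeks was below every P6 mouse. Ndufb6 and Ndufa12 each fell by 0.98, and Ndufc2, the most abundant per length (98.1 CPM per kb at P6), fell by 0.32. The pair that did not pass were Ndufs1 (-0.04, FDR 0.641), the large iron-sulfur subunit, and Ndufs7 (-0.12, FDR 0.268), the carrier of the last iron-sulfur cluster before ubiquinone. Both were singled out after their values were seen. With the neural marker covariate Ndufs1 stood at -0.055 (FDR 0.809), and Ndufs7 turned to 0.145 (FDR 0.598). Under the neural marker covariate 12 of the 36 were lower, with a median of -0.43. None of the 7 core subunits was then called (median -0.15, 12 of 29 accessory subunits lower), and neither were Ndufc1 (-0.59, FDR 0.0619), Ndufb6 (-0.44, FDR 0.166), Ndufa12 (-0.35, FDR 0.295) and Ndufc2 (-0.05, FDR 0.857).

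Complex II has no mitochondrially encoded subunit. Its 4 genes had a median log2 fold change of -0.51. Sdha, the flavoprotein, measured 194, 212 and 236 CPM in the lowest, median and highest P6 mouse, 163, 194 and 224 at P15 and 191, 213 and 232 at 8 weeks, so that the P6 and 8-week mice covered the same range. It was lower at P15 than at P6 (log2 fold change -0.13, FDR 0.0462) and higher at 8 weeks than at P15 (0.13, FDR 0.043), with no net difference detected (0.00, SE 0.06, FDR 0.989). Without P15 male 1 neither step passed (-0.10, FDR 0.0934, and 0.08, FDR 0.202), and with the covariate the second step did not (-0.06, FDR 0.505). It fell by 0.14 when libraries were scaled by their size alone (FDR 0.00316) and by 0.33 with the neural marker covariate (FDR 0.0048). The iron-sulfur subunit Sdhb had a log2 fold change of -0.43 from P6 to 8 weeks (-0.45, FDR 0.0895, with the covariate), and the membrane anchors Sdhc and Sdhd had -0.59 and -0.80. Sdhd was the subunit with the highest level per length at P6 (77.2 CPM per kb), and Sdha was at 8 weeks (51.5).

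The calls of the separate steps were also compared. Of the 80 nuclear subunits, 44 were lower in both steps (13.3% of all genes), 12 in the first and not the second (18.1%), 15 in the second and not the first (10.6%), and 9 in neither. All 16 complex V genes were lower in the first step and 14 in both. The 15 genes called in the second step and not the first included Cox4i1, Cox6a1, Cox8a, Cyc1 and Uqcr11, and without P15 male 1 these 5 were also lower in the first. This split rested on P15 male 1: without it 54 genes were lower in both steps (14% of all genes), 16 in the first and not the second (18.9%), and 4 in the second and not the first (9.65%). Under the covariate of neural markers 17 were lower in both steps (10.3% of all genes), 23 in the first and not the second (15.8%), 5 in the second and not the first (9.93%) and 35 in neither. A difference between the steps was not itself tested.

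**Figure D4:**
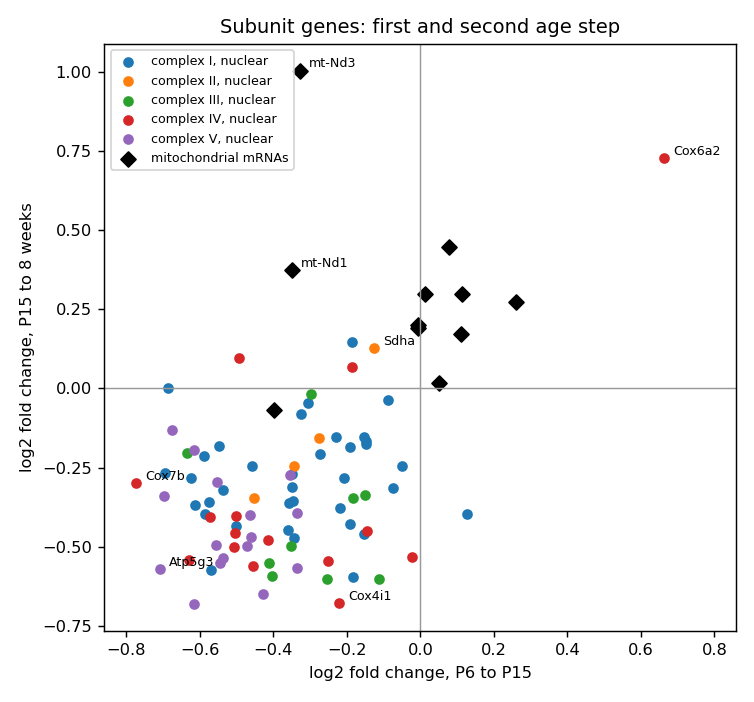
The log2 fold change from P15 to 8 weeks against that from P6 to P15 for the 80 nuclear subunits (circles, coloured by complex) and the 11 mitochondrial mRNAs (black diamonds). Most nuclear subunits lie below 0 on both axes, with a median of -0.36 on each, Cox6a2 lies at 0.66 and 0.73, and mt-Nd3 at -0.33 and 1.004.

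The mitochondrial mRNAs need a statement on counting before their values. An insertion of mitochondrial DNA on chromosome 1 carries annotated copies of parts of 7 mitochondrial genes on its minus strand, from 98.78% to 100% identical to the originals over the bases compared. A fragment that fits both places equally has no unique position, and the flags that the study gives for featureCounts do not include counting of such fragments. The share of 100-base windows also found in another annotated transcript was 99.9% for mt-Co3, 99.5% for mt-Co2 and mt-Atp6, 98.5% for mt-Nd4l, 97.6% for mt-Nd3, 60.8% for mt-Nd4, 30.8% for mt-Co1 and 3.19% for mt-Nd2. No window of mt-Nd1, mt-Nd5, mt-Nd6, mt-Cytb or mt-Atp8 was found in another annotated transcript. The stretches of the insertion between the annotated copies were not examined. mt-Atp8 lies between mt-Co2 and mt-Atp6, which both have copies there. The first 60 bases of mt-Nd3 (chrM:9459-9518) and of its copy Gm28438 (chr1:24613060-24613119, minus strand) show how close the copies are. The capital marks the single base by which the 345 compared bases differ, T3C, counted from 1 at the first base of mt-Nd3.
mt-Nd3: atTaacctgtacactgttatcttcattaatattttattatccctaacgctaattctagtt
Gm28438: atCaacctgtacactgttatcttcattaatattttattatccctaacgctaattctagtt

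At P6 the means per length were 3904 CPM per kb for mt-Co1, 1976 for mt-Nd1 and 1763 for mt-Cytb, but 6.37 for mt-Nd3, 3.53 for mt-Co3, 3.20 for mt-Co2 and 2.49 for mt-Atp6. These last 4 were measured from at most 180 counts per mouse, and with nearly all of their windows shared these values cannot be read as transcript levels. mt-Atp8 and mt-Nd4l were under the limit, with at most 12 and 24 counts. mt-Co1 alone made up 49% of the summed CPM of the 11 mRNAs (median over the mice). With the 5 mRNAs that share under 5% of windows, the ratio to the nuclear sum was 0.72 ± 0.18 at P6, 0.90 ± 0.33 at P15 and 1.44 ± 0.48 at 8 weeks.

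**Figure D5:**
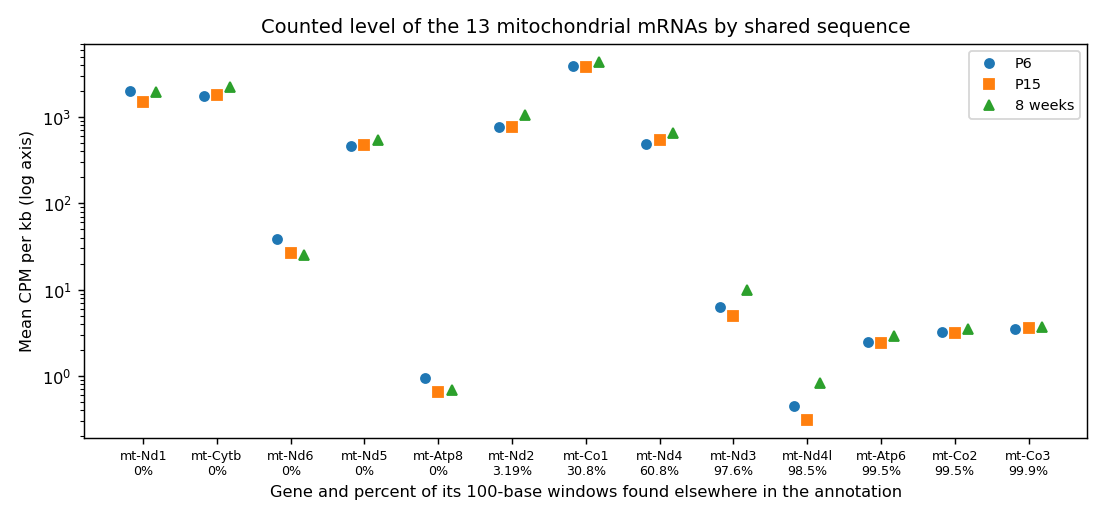
Mean counted level per length (CPM per kb, log axis) of the 13 mitochondrial mRNAs at P6, P15 and 8 weeks, ordered by the percent of their 100-base windows that also occur in another annotated transcript. The 5 genes with at least 97.6% shared lie at or below 10.02 CPM per kb, mt-Co1 lies highest, and mt-Atp8 is low with no window in another annotated transcript. Unannotated parts of the chromosome 1 insertion were not compared.

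Of the 4 mRNAs called higher, mt-Nd2, a membrane subunit of complex I, measured 492.5, 788 and 1035 CPM in the lowest, median and highest P6 mouse, 506, 756 and 1220 at P15 and 567, 1136 and 1408 at 8 weeks. The ages overlapped, and the log2 fold change from P6 to 8 weeks was 0.52 (SE 0.15, FDR 0.00232), and 0.86 (FDR 0.0257) with the covariate. mt-Nd4, also of complex I, rose by 0.53 (SE 0.18, FDR 0.00818) and did not pass when libraries were scaled by size alone (0.40, FDR 0.0595), and its value with the covariate was 0.95 (FDR 0.0423). mt-Cytb, the cytochrome b of complex III, measured 1338, 2000 and 2550 CPM at P6 and 1261, 2706 and 3255 at 8 weeks and had a value of 0.41 (SE 0.16, FDR 0.0214). It did not pass with library size scaling (0.28, FDR 0.146), with the neural marker covariate, where the value was larger (0.81, FDR 0.0515), without sex in the model (0.33, FDR 0.0731) or without P6 female 2 (0.36, FDR 0.0628). mt-Nd3 had a value of 0.68 (FDR 0.00117) from 25 to 180 counts per mouse and did not pass with the covariate (0.89, FDR 0.0655), and with 97.6% of its windows shared this cannot be read as a change of the transcript.

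mt-Co1, the catalytic subunit of cytochrome c oxidase, measured 5091, 6291 and 7073 CPM in the lowest, median and highest P6 mouse, 2857, 5882 and 7677 at P15 and 4312, 7009 and 8915 at 8 weeks, a log2 fold change of 0.20 (SE 0.12, FDR 0.142). The ages overlapped. mt-Nd5 had 0.28 (FDR 0.128), mt-Atp6 had 0.31 (FDR 0.09, and 1.02 with FDR 0.0131 with the covariate), mt-Co2 had 0.18 (FDR 0.377) and mt-Co3 had 0.07 (FDR 0.625). mt-Nd1 was lower at P15 (median 1895 CPM at P6, 1398 at P15 and 1925 at 8 weeks), with a log2 fold change of -0.35 (FDR 0.0346) and then 0.37 (FDR 0.0232), the latter without P15 male 1 being 0.29 (FDR 0.0539). With the covariate neither step of mt-Nd1 passed (-0.26, FDR 0.255, and 0.49, FDR 0.0588). mt-Nd6, the single mRNA transcribed from the other strand, had a value of -0.47 (SE 0.22, FDR 0.057). That value rests in part on P6 male 5, with 67.4 CPM against a P6 median of 15.8, and without it was -0.16 (FDR 0.345). It was called lower by DESeq2 (FDR 0.0456), with library size scaling (FDR 0.0177), with at least 10 counts in every mouse (FDR 0.0407), without sex in the model (FDR 0.0169), without P6 female 3 (FDR 0.0275) or 5 (FDR 0.0374) and without P15 male 1 (FDR 0.0476).

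Complex by complex, each set of nuclear subunits had a median below 0, and the edgeR test called none of the mitochondrial partners lower at 8 weeks, with the exceptions for mt-Nd6 under other settings given above. In complex IV, Cox4i1 and Cox5a fell by 0.90 and 1.17 on the log2 scale from P6 to 8 weeks and mt-Co1 had 0.20. In complex III, Uqcrfs1, the Rieske iron-sulfur protein (named after its value was seen), fell by 0.85 and mt-Cytb had 0.41. In complex I the nuclear median was -0.64, and 6 mt-Nd mRNAs were tested with values from -0.47 to 0.68. The highest of these was mt-Nd3, whose value cannot be read as a change of the transcript.

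The 8 Ndufaf genes, assembly factors of complex I and not subunits, did not move as 1 group. From P6 to 8 weeks 3 were lower, 1 was higher and 4 did not pass the test, with a median of -0.08 (2 lower and 2 higher with the covariate, median 0.11). Ndufaf7, a methyltransferase that acts in complex I assembly, measured 17.7, 20.2 and 22.95 CPM in the lowest, median and highest P6 mouse, 25.7, 30.9 and 35.2 at P15 and 31.1, 34.4 and 38.3 at 8 weeks. Every mouse at P15 and at 8 weeks was above every P6 mouse (log2 fold change 0.77, SE 0.06, FDR 6.53e-13, and 0.39 with FDR 0.00328 with the covariate). Ndufaf2 fell by 0.95 (SE 0.10), although 62.4% of its windows were shared (-0.63 with the covariate), and Ndufaf5 by 0.61, with 0.09 (FDR 0.734) under the neural marker covariate. Of the genes listed apart, Cox7a2l, a supercomplex assembly factor, had 188 ± 22.2 CPM at P6, 215 ± 37.8 at P15 and 144 ± 30.1 at 8 weeks, a fall of 0.58 in the second step (FDR 1.8e-05, and 0.94 with the covariate). Atp5s, a coupling factor related gene named after its value was seen, had 4.74 ± 0.59 CPM at P6 and 8.56 ± 1.596 at 8 weeks, without overlap (log2 fold change 0.85, FDR 1.9e-08).

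Other mitochondrial genes were counted in the same fit from lists, whose counts stand beside the 36.6% lower and 37.8% higher among all genes (24.3% and 26.2% with the covariate). Among 37 assembly factors of the respiratory chain and ATP synthase outside the symbols above, 12 were lower and 9 higher from P6 to 8 weeks, with a median of -0.03, and 7 and 5 with the covariate (median -0.12). Cox17, a copper chaperone of complex IV, rose from 1.68 ± 0.36 to 4.20 ± 0.88 CPM (log2 fold change 1.39, SE 0.19, FDR 7.23e-08, past 2-fold). Uqcc2 and Coa7, factors of complexes III and IV, fell by 0.80 and 0.69, and Uqcc2 did not pass with the covariate (-0.63, FDR 0.0573).

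Among 28 genes of mitochondrial transcription, replication and RNA processing, 6 were lower and 11 higher, with a median of 0.15. Tefm, the mitochondrial transcription elongation factor, rose from 4.45 ± 0.81 to 9.22 ± 0.73 CPM (log2 fold change 1.07, FDR 8.76e-09). Mterf3 and Mterf1a, of the mitochondrial termination factor family, rose by 1.02 and 1.18. With the neural marker covariate 4 of the 28 were higher and 6 lower (median 0.06), and Tefm did not pass (0.35, FDR 0.22).

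Among 13 nuclear regulators of mitochondrial biogenesis, 2 were lower and 5 higher, with a median of 0.13, and 3 and 4 with the covariate (median -0.19). Esrrg, an oestrogen-related receptor, fell past 2-fold from 4.74 ± 1.87 to 1.58 ± 0.78 CPM (log2 fold change -1.61, SE 0.31, FDR 2.33e-05), and its direction turned with the covariate (1.20, FDR 0.0268). Ppargc1a, a coactivator of respiratory gene transcription, rose from 4.27 ± 1.16 to 8.38 ± 2.83 CPM (log2 fold change 0.96, SE 0.27, FDR 0.00195), and Ppara rose by 1.27 (FDR 0.00403). With the covariate these values were 3.25 and 3.64.

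Of 77 genes of mitochondrial ribosomal proteins 68 were lower and 4 higher (median -0.48), and 62 of them were lower from P6 to P15 and 15 from P15 to 8 weeks, beside 31.4% and 23.9% of all genes, a difference between the steps that was not itself tested. With the covariate 46 were lower and 0 higher from P6 to 8 weeks (median -0.54). Mrpl28 had the largest fall, from 35.5 ± 3.85 to 15.3 ± 2.50 CPM (log2 fold change -1.24, past 2-fold), and it was not past 2-fold with the covariate (-0.89). Of 17 genes of outer membrane and matrix reference proteins 13 were lower and 1 higher (median -0.61, and 12 and 0 with the covariate, median -0.74), with the porins Vdac3 and Vdac1 and the prohibitin Phb2 falling by 0.97, 0.86 and 0.995. Of 16 genes of tricarboxylic acid cycle enzymes 14 were lower and none higher (median -0.28), led by Mdh2, Fh1 and Idh3a with falls of 0.86, 0.67 and 0.53. With the covariate 5 of the 16 were lower (median -0.16), and Mdh2 (-0.51, FDR 0.0555) and Idh3a (0.03, FDR 0.856) did not pass.

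Genes with a short union of exons as a class were lower at 8 weeks, and the nuclear subunits were lower than their length class. The union of all annotated exons can exceed the length of any transcript of a gene, so these classes do not match transcript length. Among subunits with under 1 kb of exon the median log2 fold change was -0.82 (n = 20), beside -0.32 for 314 other protein-coding genes of that length. Between 1 and 2 kb it was -0.80 (n = 30) beside -0.15, between 2 and 3 kb -0.43 (n = 11) beside -0.05, and over 3 kb -0.81 (n = 19) beside 0.01. Across the 80 subunits the change and the exon length had a Spearman correlation of 0.05, and the change and the mean level one of -0.01, both over genes of the same libraries.

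No gene of the set passed the test between the sexes. Over the 3 ages 0 of the 103 genes passed FDR 0.05 (0.0738% of all genes did), with 4 at an unadjusted p under 0.05, and DESeq2 and limma-voom also called 0. At P15 the median difference, males minus females, was 0.24 on the log2 scale with 32 genes at an unadjusted p under 0.05 and 0 past FDR. Without P15 male 1 these were 0.10 and 5. The sex difference was also tested for a change between ages, and none of the 103 genes passed (0 past FDR, lowest FDR 0.154 for P15 against P6 and 0.858 for 8 weeks against P6). At an unadjusted p under 0.05 there were 25 and 0, and DESeq2 and limma-voom called 0 of the 103. Of all 17612 genes, edgeR and limma-voom called 0 in both comparisons. DESeq2 called 87 lower and 58 higher for P15 against P6 and 0 for 8 weeks against P6. Without P15 male 1 the counts of the 103 genes at an unadjusted p under 0.05 were 8 and 3, also with 0 past FDR (lowest FDR 0.251 and 0.586). The share of all genes at an unadjusted p under 0.05 was not determined. The unadjusted counts, here and at P6 below, therefore do not set the 103 genes apart.

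At P6 the mitochondrial sum was 9083 to 11245 CPM in the 4 females and 12137 to 14875 in the 6 males, without overlap, and all 11 mitochondrial mRNAs had a higher mean in males. Their log2 differences ran from 0.21 to 0.91, 6 had an unadjusted p under 0.05 and none passed FDR (lowest FDR 0.696). The highest of these was mt-Nd6, the mRNA far from the others in P6 male 5, and without that mouse the differences ran from 0.18 to 0.57, mt-Nd6 stood at 0.29 and 1 mRNA had an unadjusted p under 0.05. At P15 3 of the 11 and at 8 weeks 11 of the 11 were higher in males, and the sums overlapped. Of all 103 genes, 26 were higher in males at P6, with a median of -0.10 beside 0.002 for all genes tested. The nuclear sum at P6 had a mean of 8139 CPM in females and 7583 in males. The P6 females had neural progenitor markers of 6.29 to 6.57 and the P6 males of 4.47 to 6.72, and the part of these in the difference was not tested.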

How the data were processed

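CD45+ cells were immunopanned from the brain of 35 mice, and directional mRNA libraries were sequenced as paired reads of 100 bases. By the study's methods, STAR aligned the reads to GRCm38 (mm10) without changed settings, and featureCounts counted them per gene on the reverse strand. The annotation release is not given in the sources used here. The authors deposited raw counts, whole numbers per gene without normalization. The small RNA files of the series were not used here.

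Gene names came from GENCODE M21, which named 55141 of 55401 identifiers. The limit on low counts was 0.5 CPM in 5 or more of the 34 mice. Counts were fitted with edgeR 4.0.16 (R 4.3.3), with TMM scaling and 1 mean per age and sex group. The quasi-likelihood test was the main test, glmTreat tested the 2-fold threshold, and p-values were adjusted by Benjamini-Hochberg over all 17612 genes. The study itself used limma-voom. CPM values of genes past the limit use the TMM-scaled library size, and levels per kb divide CPM by the union of exons. Values of the markers, of the neural covariate and of genes under the limit use total counts without TMM scaling. Sums and medians over genes have no test. No pair of mice within a group agreed within sampling noise (lowest chi-square per gene 12.8 over 85 pairs). The fit was tested on simulated data. Shared sequence was measured as windows of 100 bases of a gene's M21 transcripts that occur on either strand of a transcript of another gene. The limit set by 0 counts covers counting error only.

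The genes, lists and motifs were chosen with earlier results of these data known. Genes named are all mitochondrial genes, the 3 largest changes and the highest level per length in complexes I, III, IV and V, all of complex II, Cyc1, Cycs, those past 2-fold, the isoform families, and, for Ndufaf genes and the lists, those past 2-fold or the 3 largest changes. Alternatives were all 35 mice, library size scaling, DESeq2 size factors, scaling without mitochondrial genes, limma-voom 3.58.1, DESeq2 1.42.0, no filter, at least 10 counts in every mouse, the 2 ages alone, age without sex, a replicate block, a covariate of 15 neural markers, and each P6 female left out. Leaving out P15 male 1 or P6 male 5 was chosen after seeing the data.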

Additional observations from a re-analysis of the deposited data

Results flagged for a closer look

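In P15 male 1 the summed level of the nuclear subunits was 9897.7 CPM, far from the other 5 P15 males (5758 to 6211). The same library had the lowest ratio of mitochondrial to nuclear sums of all mice (0.596). In P6 male 5, mt-Nd6 measured 67.4 CPM, far from the other P6 mice (median of all 10 mice 15.8). Distance from the group was checked in 77 groups of 4 to 10 mice, and chance gives about 1 such group in 20.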

How the results depend on the processing

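Between 84 and 87 genes changed from P6 to 8 weeks when a library was left out, 63 to 70 from P15 to 8 weeks and 62 to 79 from P6 to P15, the last being 79 without P15 male 1. Genes past 2-fold from P6 to 8 weeks were 3 to 5 on leaving a library out, 8 with library size scaling and 0 with DESeq2. With the neural marker covariate 28 genes changed from P15 to 8 weeks and 53 from P6 to 8 weeks, and 0 passed 2-fold. The medians from P6 to 8 weeks were then -0.571 for the nuclear subunits, 0.685 for the mitochondrial mRNAs, -0.431 for complex I, -0.513 for complex III and -0.547 for complex IV. The mitochondrial median from P6 to P15 turned to -0.002 with all 35 mice and -0.100 with library size scaling. No gene of the oxidative phosphorylation set was called between sexes or for an interaction under the alternatives run.

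The following changes turned sign from P6 to 8 weeks. mt-Nd1 was -0.105 with library size scaling, -0.009 with limma-voom, -0.007 with at least 10 counts in every mouse and -0.026 without sex, and -0.025 to 0.044 on leaving a library out. Sdha was -0.139 with library size scaling and -0.329 with the neural covariate. It was -0.004 with DESeq2 size factors, DESeq2, the 2 ages alone, no sex term or the replicate block, -0.010 with no filter, -0.037 with at least 10 counts, and -0.051 to 0.014 on leaving a library out. mt-Co3 was -0.067 with library size scaling and -0.006 to 0.096 on leaving a library out. With the neural covariate Cox4i2 was 0.782, Cox6b2 0.263, Ndufaf5 0.092, Ndufa4l2 1.177 and Ndufs7 0.145. The causes were not tested.

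With the replicate block 78 genes were lower and 7 higher from P6 to 8 weeks. Mice with the same number did not deviate together (80 pairs, median correlation 0.033, range -0.536 to 0.691), and 2 of 34 correlated best with their own number, so the numbers did not pair the mice. Age without sex was not run for the sex results, nor the 2 ages alone for sex. mt-Nd3, mt-Co2, mt-Co3 and mt-Atp6 were measured from at most 180 counts per mouse, with 97.6% or more of their windows shared with other transcripts.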

Other observations

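The P6 female 6 library, which was in no comparison, had neuronal markers at a mean log2 CPM of 7.83 and oligodendrocyte markers at 7.05, above the highest of the other P6 mice (6.46 and 5.18), and microglial markers at 8.55, below the lowest (9.52). Its nuclear sum (7147 CPM), mitochondrial sum (11731 CPM) and ratio (1.64) lay within the range of the other P6 mice. Of the 103 genes, 23 lay below and 10 above all other P6 mice in it. The share of all genes outside that range was not determined, so these counts do not set the 103 apart. Among the genes outside it, Sdha measured 163 CPM, below the 194 to 236 of the other P6 mice, and Cox7a2l measured 123 CPM, below their 158 to 224. Ndufa4l2 measured 19.8 CPM, above their 1.58 to 18.3, and Ndufaf5 measured 12.2 CPM, above their 4.59 to 9.87. These 4 genes were singled out after their values were seen.

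The 7 annotated mitochondrial copies on chromosome 1 had medians from 4 counts per library for the mt-Nd4l copy to 108 for the mt-Co3 copy, and a highest count of 173.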
